A study of Mus musculus with 2 samples.

Results

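Platelet-derived growth factors are dimeric signals whose chains are encoded by Pdgfa, Pdgfb, Pdgfc and Pdgfd, and their receptors are the tyrosine kinases encoded by Pdgfra and Pdgfrb. The A and C chains act mainly through the alpha receptor, the D chain acts mainly through the beta receptor, and the B chain binds both. Chains C and D are secreted in a latent form and have to be cut by a protease before they bind. In the liver the family is known for driving division and migration of stellate cells and fibroblasts. The 6 genes were taken as named, matched by Ensembl identifier, and all 6 were found among the 30406 genes shared by the matrices: ENSMUSG00000025856 (Pdgfa), ENSMUSG00000000489 (Pdgfb), ENSMUSG00000028019 (Pdgfc), ENSMUSG00000032006 (Pdgfd), ENSMUSG00000029231 (Pdgfra) and ENSMUSG00000024620 (Pdgfrb).

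Liver cells of mice carrying Col1a2CreER with Rosa26tdTomato, a tamoxifen-dependent Cre under a collagen gene promoter with a red reporter, were profiled by droplet sequencing of transcript 3′ ends in 1 library from healthy animals and 1 library from animals injured with CCl4 (carbon tetrachloride), a hepatotoxin given repeatedly in corn oil. How many mice went into each library is not given in the sources used here. After filtering, 5602 healthy and 7314 CCl4 cells remained, with medians of 6783.5 and 11876 unique molecular identifiers (UMIs, counts of captured transcripts) per cell, and 10 cell barcodes occurred in both libraries. The liver was digested with enzymes, the cells were purified on a density gradient, and most cells carrying CD45, a surface protein of blood cells, were removed with magnetic beads. With 1 library per condition no difference between healthy and CCl4 could be tested, and the intervals given (95%) cover counting error only.

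Cells were clustered without the 6 genes and classed from marker genes. The healthy library held 3560 endothelial-like, 1434 cholangiocyte-like (bile duct epithelium), 328 hepatocyte-like, 235 mesothelial-like (liver surface epithelium), 25 mesenchymal-like and 20 immune-like cells. The CCl4 library held 4833 mesenchymal-like, 957 mesothelial-like, 653 endothelial-like, 509 immune-like, 329 hepatocyte-like and 33 cholangiocyte-like cells. Hepatocyte-like cells thus made up 5.86% and 4.50% of the cells. The design text calls the sequenced cells hepatocytes, while the sample titles call them liver cells. Because the makeup of the libraries differed so strongly, and the gradient and the bead step can set it, the share of a gene's UMIs held by a class depends on how many such cells were captured. Levels are therefore given as the UMIs of a gene per 1000000 UMIs of the class (CPM).

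Promoters are shown for Pdgfa, Pdgfc, Pdgfd and Pdgfra, the 4 of 6 members with an entry in the promoter set used. Each is the 250 bases upstream of a RefSeq transcription start (build GRCm38.p6), printed 5′ to 3′ on the strand of the gene. Capitals mark matches to any of 4 motifs, searched on both strands. The TATA box was searched as TATAAA. The GC box, a site known from promoters without a TATA box, was searched as GGGCGG. The CCAAT box was searched by the letters of its name. The half-site of the HNF1 factors, which act in liver and duct epithelium, was searched as GTTAAT. The windows lie at chr5:138994945-138995194 (Pdgfa, minus strand, 1 of 2 RefSeq starts), chr3:81036166-81036415 (Pdgfc, plus strand), chr9:6168236-6168485 (Pdgfd, plus strand) and chr5:75152001-75152250 (Pdgfra, plus strand).
Pdgfa: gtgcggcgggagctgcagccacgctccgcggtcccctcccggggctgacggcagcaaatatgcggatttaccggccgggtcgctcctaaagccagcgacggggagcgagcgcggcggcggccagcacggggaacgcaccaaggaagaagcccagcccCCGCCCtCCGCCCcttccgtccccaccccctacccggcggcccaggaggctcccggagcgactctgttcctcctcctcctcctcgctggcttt
Pdgfc: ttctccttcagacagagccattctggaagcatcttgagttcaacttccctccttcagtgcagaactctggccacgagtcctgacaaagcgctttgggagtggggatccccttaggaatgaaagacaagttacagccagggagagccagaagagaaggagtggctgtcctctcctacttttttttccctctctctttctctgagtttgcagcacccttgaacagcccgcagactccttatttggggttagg
Pdgfd: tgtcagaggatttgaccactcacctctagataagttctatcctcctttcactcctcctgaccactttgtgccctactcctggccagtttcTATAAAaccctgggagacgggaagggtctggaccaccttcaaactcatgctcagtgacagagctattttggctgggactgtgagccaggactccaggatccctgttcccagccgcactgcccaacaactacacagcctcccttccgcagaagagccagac
Pdgfra: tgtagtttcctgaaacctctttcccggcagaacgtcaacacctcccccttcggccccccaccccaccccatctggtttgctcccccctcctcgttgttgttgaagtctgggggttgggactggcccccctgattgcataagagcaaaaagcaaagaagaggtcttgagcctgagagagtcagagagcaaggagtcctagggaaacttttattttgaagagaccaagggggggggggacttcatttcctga
The Pdgfa window held 2 GC boxes in a sequence of 72.4% G and C, the window of its other start held 1 GC box, and the Pdgfd window held 1 TATA box. The Pdgfc and Pdgfra windows held none of the 4 motifs, and no window held the HNF1 half-site. Among all 32851 RefSeq windows of the same length, 32.7% held a GC box, 12.4% a TATA box, 33.8% a CCAAT box and 6.43% the half-site. The 3 ligand promoters therefore shared none of these motifs, and the matches are a description of the windows.

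In healthy liver the ligands were held mainly by cholangiocyte-like cells, and the receptors by very few mesenchymal-like cells. Of 11469 UMIs of the 4 ligands in healthy cells, 82.2% (81.5 to 82.9) fell in cholangiocyte-like cells, 10.4% (9.86 to 10.98) in endothelial-like cells and 6.10% (5.67 to 6.56) in mesothelial-like cells. The receptors gave only 122 UMIs in 5602 healthy cells, of which 73.0% (64.2 to 80.6) fell in the 25 mesenchymal-like cells. In the CCl4 library 6908 ligand UMIs fell 66.2% (65.1 to 67.3) in mesenchymal-like, 26.6% (25.6 to 27.7) in mesothelial-like and 4.50% (4.03 to 5.02) in endothelial-like cells. The receptors gave 42792 UMIs there, 90.3% (89.98 to 90.55) in mesenchymal-like and 9.19% (8.91 to 9.46) in mesothelial-like cells. When each library was clustered on its own the mesenchymal share of the receptors was 83.8%, and 702 of the 4833 cells then carried no class name. The UMIs of the sending and receiving classes thus lay apart in the healthy library and largely in the same classes in the CCl4 library, whose cells were mostly mesenchymal-like.

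**Figure D1:**
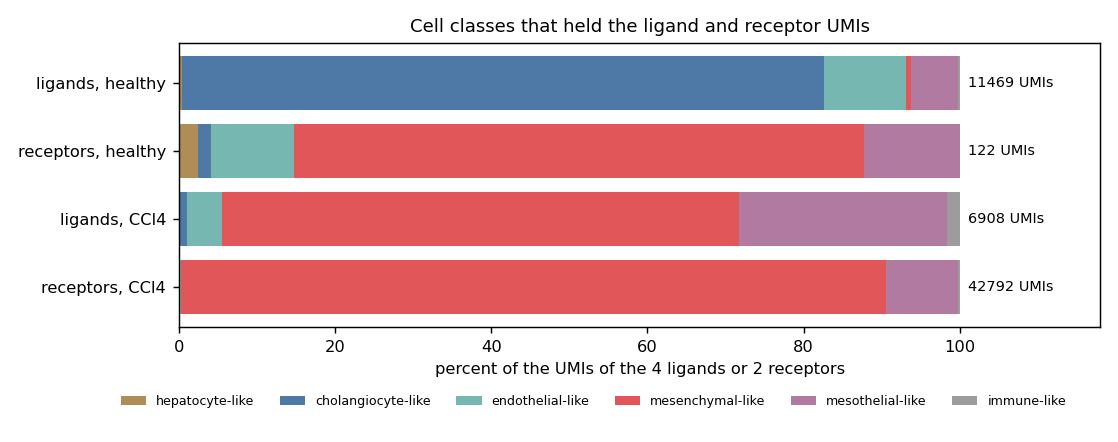
Percent of the UMIs of the 4 ligands and of the 2 receptors (x axis) held by each cell class (colours) in the healthy and CCl4 libraries (rows), with the total UMIs at the right. Cholangiocyte-like cells held 82.2% of healthy ligand UMIs, and mesenchymal-like cells held 90.3% of CCl4 receptor UMIs.

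Pdgfa, whose chain is the classical ligand of the alpha receptor, stood at 162 CPM (156 to 168) in healthy cholangiocyte-like cells and at 161 CPM (149 to 174) in healthy mesothelial-like cells. These neighbours in the order did not differ beyond their intervals. The healthy mesenchymal-like cells followed with 125 CPM (86.9 to 173) from 35 UMIs. Of these, 19 lay in the 12 cells of cluster 8, and others in 3 cells of cluster 20 that did not bear out the class name. Immune-like, endothelial-like and hepatocyte-like cells were at 33.8, 9.77 and 8.31 CPM. In the CCl4 library the 33 cholangiocyte-like cells had 117 CPM (78.7 to 169), mesenchymal-like cells 55.5 (53.7 to 57.4), mesothelial-like cells 53.0 (49.5 to 56.6), immune-like cells 16.9 and endothelial-like cells 15.2 CPM. The intervals of mesenchymal-like and mesothelial-like cells overlapped.

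Pdgfb, whose chain binds both receptors and is known as the endothelial signal that recruits mural cells, had another distribution. It was at 25.3 CPM (23.0 to 27.7) in healthy cholangiocyte-like and 18.3 CPM (16.5 to 20.3) in healthy endothelial-like cells, and no UMI was found in 235 mesothelial-like cells, which allows a share of up to 1.28% of cells with a UMI (3 counts over the cells, counting error only). The 20 healthy immune-like cells gave 10 UMIs (48.3 CPM, 23.1 to 88.8). In the CCl4 library endothelial-like cells were highest at 42.0 CPM (36.1 to 48.5), immune-like cells had 21.0 CPM (15.7 to 27.5), and mesenchymal-like cells only 0.836 CPM (0.626 to 1.09). Mesenchymal-like cells, the main holders of the receptors, thus carried 53 Pdgfb UMIs among 63427158.

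Pdgfc, which encodes a latent ligand of the alpha receptor, was the member most restricted to 1 class in the healthy library. Healthy cholangiocyte-like cells had 194 CPM (188 to 201) and 97.6% of its 3643 healthy UMIs, against 1.55 CPM (1.06 to 2.19) in endothelial-like, 1.82 CPM (0.732 to 3.75) in mesothelial-like and 7.95 CPM (4.98 to 12.04) in hepatocyte-like cells. The 25 mesenchymal-like and 20 immune-like cells had 78.4 CPM (49.1 to 119) from 22 UMIs and 29.0 CPM (10.6 to 63.1) from 6 UMIs. After thinning each cell to 2000 UMIs, 31.4% (28.9 to 34.0) of cholangiocyte-like cells and 0.345% (0.167 to 0.628) of endothelial-like cells showed a Pdgfc UMI. Without thinning these were 79.4% and 0.899% at medians of 11172 and 5910 UMIs. In the CCl4 library mesothelial-like cells had 45.6 CPM (42.4 to 49.0), the 33 cholangiocyte-like cells 64.8 CPM (37.0 to 105) and mesenchymal-like cells 5.71 CPM (5.13 to 6.33).

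Pdgfd, which encodes a latent ligand of the beta receptor, was at 134 CPM (129 to 139) in healthy cholangiocyte-like, 28.1 CPM (25.9 to 30.5) in endothelial-like and 18.98 CPM (14.9 to 23.9) in mesothelial-like cells. In the CCl4 library its levels in endothelial-like (13.4 CPM, 10.2 to 17.3), mesothelial-like (11.6 CPM, 10.1 to 13.4) and mesenchymal-like cells (10.1 CPM, 9.31 to 10.9) lay close together, and the 33 cholangiocyte-like cells gave 20 UMIs (81.0 CPM, 49.5 to 125). Each of the 4 ligands was thus highest, or level with the highest, in cholangiocyte-like cells of the healthy library, except that the interval of the 20 immune-like cells spanned the Pdgfb level of the cholangiocyte-like cells.

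**Figure D2:**
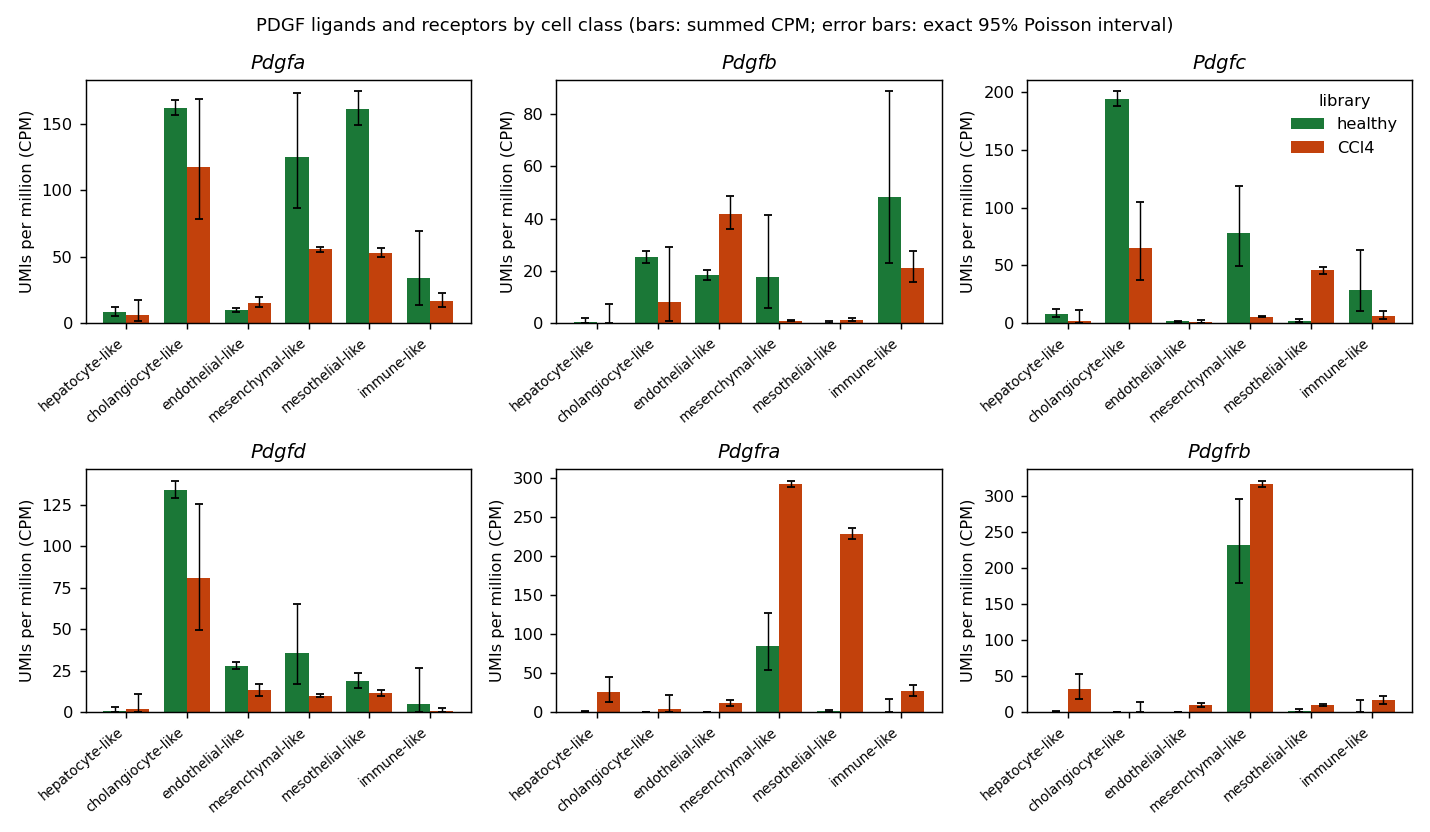
CPM of each member (y axis; scales differ) in each cell class (x axis) of the healthy (green) and CCl4 (orange) libraries, bars giving the summed level and error bars the exact 95% Poisson interval. Pdgfa, Pdgfc and Pdgfd stood at 162, 194 and 134 CPM in healthy cholangiocyte-like cells, and the receptors stood out in CCl4 mesenchymal-like cells.

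Single cholangiocyte-like cells carried several ligands. Of the 1434 healthy cells, 206 (14.4%) had UMIs of all 4 ligands, 595 (41.5%) of 3, 359 (25.03%) of 2, 181 (12.6%) of 1 and 93 (6.49%) of none. At 2000 UMIs per cell, Pdgfa and Pdgfc were seen together in 8.55% of 1351 cells, where the product of their own shares was 8.40% (odds ratio 1.04). For Pdgfa with Pdgfd the odds ratio was 0.975 and for Pdgfc with Pdgfd it was 0.978. The ligands therefore did not sort into separate cholangiocyte-like cells at this depth. Among 7 sub-clusters Pdgfc ranged from 89.9 CPM, in 14 cells led by Dmbt1 and Tff3, to 209.7 CPM in 70 cells led by the interferon-response genes Ifit3b and Ifit3, and Pdgfa from 128.4 to 202 CPM. The upper end for Pdgfa was a sub-cluster led by the hepatocyte genes Apoa2 and Mup7, with 81 UMIs.

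Spread of free RNA from cholangiocyte-like cells was gauged with the duct genes Spp1, Epcam and Krt19, whose UMIs in another class were multiplied by the ratio of each ligand to them within cholangiocyte-like cells. In healthy endothelial-like cells this gave 19.8 to 35.7 Pdgfa UMIs where 202 were counted, 3.09 to 5.56 Pdgfb UMIs where 379 were counted and 16.4 to 29.5 Pdgfd UMIs where 581 were counted. For Pdgfc it gave 23.8 to 42.8 UMIs where 32 were counted. That count lay within the estimates, and how much of it was free RNA was not tested. In healthy hepatocyte-like cells 22 Pdgfc UMIs stood against 4.95 to 7.72, and 3 Pdgfd UMIs against 3.41 to 5.32.

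Within the endothelial-like class Pdgfb was highest in cells with genes of larger vessels. In the healthy library a cluster of 208 cells led by Vwf, Gja5 and Edn1, genes known from arteries and larger vessels, had 74.5 CPM (62.4 to 88.2), against 13.3 CPM (11.5 to 15.3) in a cluster led by Clec4g and Cd300lg and 13.8 CPM (10.3 to 18.2) in a cluster led by Ushbp1 and Stab1, both with sinusoidal genes. Pdgfa was likewise higher there, at 41.1 CPM (32.3 to 51.6) against 6.66 and 7.87 CPM. In finer sub-clusters, healthy cells led by Col8a1 and Gja5 had 62.0 CPM Pdgfb (52.5 to 72.7) and cells led by Cyp1b1 and Rspo3, a central vein gene, had 58.95 CPM (43.9 to 77.5). The sub-clusters of the CCl4 library led by Gja5 and by Rspo3 with Wnt9b had 70.1 CPM (45.8 to 103) and 64.6 CPM (46.7 to 87.0), within the healthy intervals. The largest CCl4 sub-cluster, led by the replication genes Mcm5 and Hells, had 44.6 CPM (35.0 to 55.9), and the next, led by Cxcl2 and Cxcl10, had 27.5 CPM (19.2 to 38.3). The other healthy sub-clusters of at least 50 cells lay between 5.40 and 13.3 CPM. Pdgfd showed no such step in healthy cells, at 33.3 CPM in the Vwf cluster and 28.0 and 30.4 CPM in the sinusoidal clusters.

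Over the whole endothelial-like class Pdgfb was 2.29 times (1.91 to 2.74) higher in the CCl4 library and Pdgfd was at 0.476 times (0.357 to 0.624) its healthy level. Pdgfa was at 1.56 times (1.16 to 2.07) and Pdgfc at 0.745 times (0.227 to 1.93). A call means at least a 2-fold difference with at least 10 UMIs over both libraries. By that rule 3 of 6 members, Pdgfb and both receptors, were higher, against 7.15% of all genes tested, and 1, Pdgfd, was lower, against 21.7%. The Pdgfd ratio did not reach the 2-fold limit with the 50 most abundant genes left out of the totals (0.544) or with cells weighted equally (0.616). The median gene of the class stood at -0.28 on the log2 scale, and at -0.09 with those genes left out. Markers of other cells moved with the class: the summed level of the 9 erythroid markers was 11.6 CPM in healthy and 26091 CPM in CCl4 cells, and that of the 18 myofibroblast markers was 1870 and 5096 CPM. Without a CCl4 sub-cluster of 12 cells with erythroid genes, which held no UMI of a member, the erythroid level was 42.3 CPM and the Pdgfb and Pdgfd ratios were 2.36 and 0.490. The class was held by different clusters in the 2 libraries, namely clusters 0, 3 and 5 in healthy and cluster 4 in CCl4. When each library was clustered on its own, 239 of the 653 CCl4 endothelial-like cells joined a mesenchymal-like cluster and the Pdgfb ratio was 1.48, below the 2-fold call.

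The receptor UMIs in CCl4 endothelial-like cells, 51 of Pdgfra and 43 of Pdgfrb, were set beside what free mesenchymal RNA would bring. Scaled by the collagen genes Col1a1 and Col3a1 and by Dcn, mesenchymal-like cells would account for 26.7 to 54.1 Pdgfra UMIs and 28.9 to 58.7 Pdgfrb UMIs. Both counts lay within these estimates, and how much of them was free RNA was not tested. In the 329 CCl4 hepatocyte-like cells, whose median was 898 UMIs, 13 Pdgfra and 16 Pdgfrb UMIs stood against 9.85 to 17.5 and 10.7 to 18.98. Both receptors were called higher there than in healthy hepatocyte-like cells (1 and 2 UMIs; background 15.6% higher), while the CCl4 counts lay at the level of free mesenchymal RNA. A Pdgfra UMI was found in 3.95% of these hepatocyte-like cells and a Pdgfrb UMI in 4.86%, against 6.43% and 4.59% of endothelial-like cells with a median of 6537 UMIs. Pdgfc was the 1 member called lower in hepatocyte-like cells (22 and 1 UMIs; background 27.5% lower), and Pdgfb and Pdgfd had too few UMIs for a call.

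The mesothelial-like cells of the libraries differed most. Pdgfra was found with 5 UMIs in 235 healthy cells (1.30 CPM, 0.422 to 3.03) and with 3768 UMIs in 957 CCl4 cells (229 CPM, 221 to 236), a ratio of 176 (75.3 to 542). Pdgfc went with it, at 1.82 CPM (7 UMIs) in healthy and 45.6 CPM (752 UMIs) in CCl4 cells, a ratio of 25.1 (12.1 to 62.5). Pdgfa was lower in the CCl4 library, at 53.0 against 161 CPM, or 0.328 times (0.296 to 0.365). Pdgfrb was at 9.89 CPM (8.43 to 11.5) against 2.60 CPM (1.25 to 4.78), a ratio of 3.80 (2.02 to 8.08), and Pdgfd at 0.614 times (0.466 to 0.815). Pdgfb, at 0 UMIs in the healthy cells, had 21 UMIs in the CCl4 cells, which is at least 1.63-fold higher against a floor of 3 UMIs per library. With the 0 entered as it stands, 4 of 6 members were called higher, against 15.3% of all genes tested, and 1 lower, against 13.2%. With a library at 0 set to the floor, Pdgfb did not reach the 2-fold limit and 3 of 6 members were called higher, against 13.1%.

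**Figure D3:**
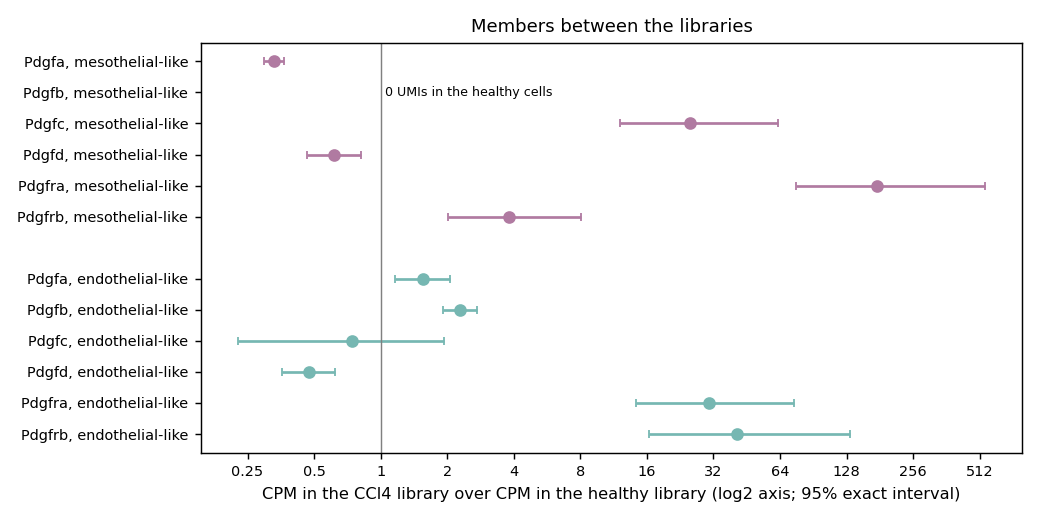
Ratio of CPM in the CCl4 library to CPM in the healthy library (x axis, log2 scale) for each member in endothelial-like and mesothelial-like cells, with exact 95% intervals. Pdgfra in mesothelial-like cells lies at 176 and Pdgfa at 0.328. The receptor ratios of endothelial-like cells rest on 51 and 43 CCl4 UMIs, within the estimates for free mesenchymal RNA.

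The class name was held up by its markers in both libraries. Msln had 2492 CPM in healthy and 602 CPM in CCl4 mesothelial-like cells, Upk3b 1982 and 923 CPM and Wt1 297 and 322 CPM, with a Upk3b UMI in 99.1% and 96.1% of the cells. The summed level of the 17 mesothelial markers, none of them at 0 in either library, was 42782 CPM in healthy and 18122 CPM in CCl4 cells, and that of the 20 portal fibroblast markers was 10473 and 2975 CPM. The class consisted of cluster 6 in healthy and mainly of cluster 18 in CCl4, so library and cell state cannot be told apart. Dcn, a fibroblast proteoglycan, was present in both, at 6743 and 4213 CPM. Held to cells with at least 20 UMIs of Msln, Upk3b, Upk1b and Lrrn4, 222 healthy and 764 CCl4 cells remained, and the Pdgfra ratio was 169. Free mesenchymal RNA scaled by Col1a1 or Col3a1 would give 530 to 564 Pdgfra UMIs and 574 to 611 Pdgfrb UMIs where 3768 and 163 were counted. Scaled by Dcn, which mesothelial-like cells carried themselves, it would give 2408 and 2609. Col3a1 and Col1a1 were also found in healthy mesothelial-like cells, at 912 and 133 CPM. The Pdgfrb count lay below every estimate, so the scaling overstates free RNA in this class. How much of the Pdgfrb count is background cannot be read from it, although Pdgfrb is among the members called higher. Pdgfra made up 95.9% (95.2 to 96.5) of the receptor UMIs of these cells against 48.0% (47.5 to 48.5) in mesenchymal-like cells. How much of the Pdgfra count came from free RNA was not tested.

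Among CCl4 mesothelial-like sub-clusters of more than 50 cells, Pdgfra ranged from 139 CPM, in cells led by Il18r1 and Clic3, to 478 CPM in 82 cells led by Gm26917, and was at 303 CPM in 258 cells led by the immediate early genes Npas4 and Nr4a3. Pdgfc ranged from 8.76 CPM, in 64 cells led by Fndc1 and Mfap5, to 66.9 CPM in the Npas4 cells. The healthy sub-clusters held between 0 and 4 Pdgfra UMIs each.

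Both receptors were abundant in the CCl4 mesenchymal-like cells, Pdgfra at 292 CPM (288 to 297) and Pdgfrb at 317 CPM (312 to 321). A Pdgfra UMI was found in 79.4% and a Pdgfrb UMI in 78.6% of the 4833 cells. Both receptors were found in 69.1% of the cells (67.8 to 70.4), 10.3% had only Pdgfra, 9.52% only Pdgfrb and 11.1% neither. Thinned to 2000 UMIs, which leaves 4187 cells, 41.2% (39.7 to 42.7) showed Pdgfra, 47.3% (45.7 to 48.8) Pdgfrb and 20.4% (19.1 to 21.6) both, where the product of the single shares was 19.5%. At this equal depth 49.4% of the cells with Pdgfra showed Pdgfrb, against 47.3% of all, and the odds ratio was 1.16. Within the clusters set apart in the following, it was 1.30 and 1.45.

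The clusters differed in the mix of the receptors. Because the ratio of the receptors within the same cells does not scale with depth, Pdgfra is given as a percent of the UMIs of both. Capture may differ between the genes, so this percent was only compared between groups of cells. In the 4073 cells of clusters 8, 9, 11, 15, 22 and 23, whose markers were mainly those of stellate cells, myofibroblasts and smooth muscle, it was 38.7% (38.2 to 39.3), with single clusters between 34.9% and 43.8%. Cluster 11, with 1406 cells and an interval of 39.2% to 40.8%, had 8 smooth muscle and 8 myofibroblast markers, but the portal fibroblast genes Dpep1 and Mfap4 were among its leading genes, so it carries no name beyond its class. In the 760 cells of the portal fibroblast-like clusters 20 and 21 it was 87.5% (86.7 to 88.3). Cluster 21, led by Serpinb2, Enpp2 and Cxcl5 and marked by Cd34, Clec3b, Cd248 and Igfbp6, had 441 CPM Pdgfra and 41.3 CPM Pdgfrb, or 91.4% (90.7 to 92.1). Cluster 20, cycling cells led by Prc1 and Ube2c, had 69.2% (66.6 to 71.7). Cluster 21 also passed the marker rule for 3 mesothelial genes.

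At finer resolution the 16 sub-clusters of the class fell on either side of a gap. The lowest was sub-cluster 12, led by the contractile genes Acta2, Tagln and Myh11, at 29.8% (28.1 to 31.6), with 143.5 CPM Pdgfra and 338 CPM Pdgfrb. Sub-clusters 0, 1, 3, 5, 6, 7, 8, 9, 10, 11 and 15 lay between 34.7% and 43.8%. The highest was sub-cluster 2, led by Lgals7, Tesc and Nkain4, at 92.8% (91.9 to 93.7), followed by the cycling sub-cluster 14 at 91.8% (89.2 to 93.9) and sub-cluster 4, led by Calca and Cxcl13, at 90.1% (89.0 to 91.1). Sub-cluster 13, with 29 cells that could not be named, had 10 Pdgfra and 2 Pdgfrb UMIs (83.3%, 51.6 to 97.9). No sub-cluster lay between 43.8% and 83.3%. Sub-clusters 0 and 10, which also had more portal fibroblast markers than markers of any other list or as many (Dpt, Mfap4, Col15a1), lay at 40.1% and 43.8%, so the high Pdgfra percent did not extend to every cell group with such markers. Pdgfra reached its highest level in sub-cluster 4, at 687 CPM (661 to 713), and Pdgfrb in sub-cluster 7, at 826 CPM, a sub-cluster of low depth led by Gm26917.

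**Figure D4:**
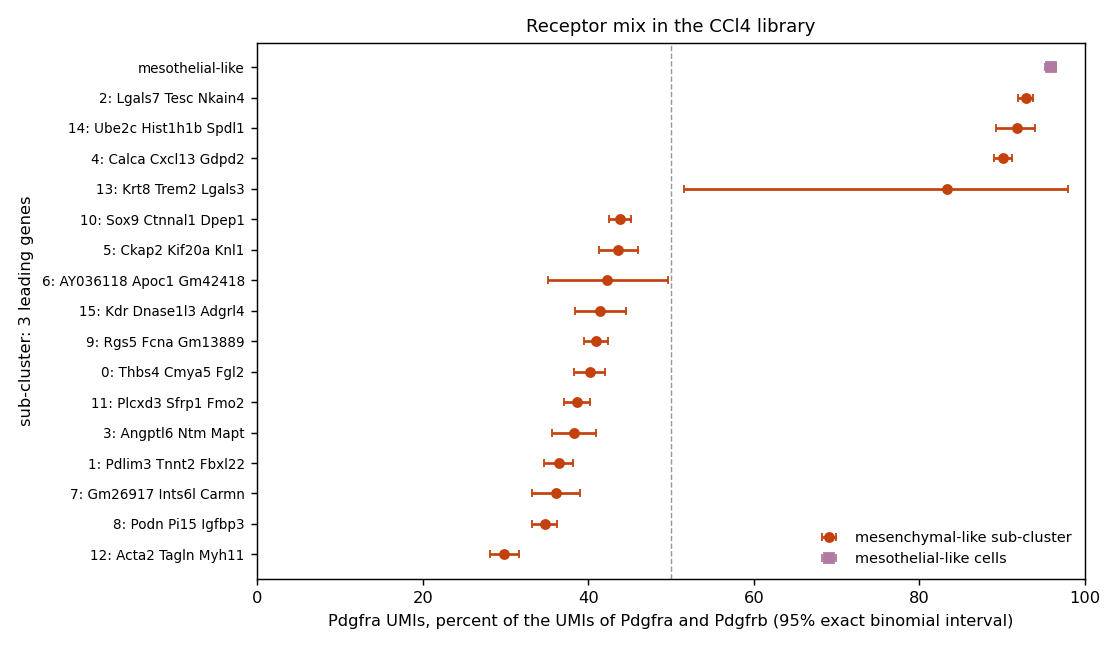
Pdgfra UMIs as a percent of the UMIs of both receptors (x axis, exact 95% binomial interval) in each of 16 mesenchymal-like sub-clusters of the CCl4 library and in its mesothelial-like cells (y axis, with leading genes). The points leave a gap between 43.8% and 83.3%, in which cluster 20 of the main clustering lay at 69.2%.

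Single cells with enough receptor UMIs to show a mix fell the same way, although the groups overlapped. At least 10 receptor UMIs were found in 1684 of the 4833 mesenchymal-like cells, and 1573 of these (93.4%) had both receptors. In the 1379 such cells outside the portal fibroblast-like clusters, the median cell had 38.5% Pdgfra, none had Pdgfra alone and 18 had Pdgfrb alone. In the 305 such cells of the portal fibroblast-like clusters the median was 92.3%. Of these, 212 (69.5%) had both receptors, 92 had Pdgfra alone and 1 had Pdgfrb alone. Of 115 mesothelial-like cells with 10 receptor UMIs, 88 had Pdgfra alone and the median was 100%. Most mesenchymal-like cells with at least 10 receptor UMIs thus had both receptors, inside and outside clusters 20 and 21. Over all 760 cells of clusters 20 and 21, 45.9% had both and 43.7% only Pdgfra. In the other clusters these shares were 73.4% and 4.08%. At 2000 UMIs per cell they were 6.35% and 42.4% in clusters 20 and 21, against 23.3% and 16.4% in the others. Without thinning, both were also found in 82.8% and 95.4% of all cells of sub-clusters 0 and 10, which had portal fibroblast markers. Thinned to 2000 UMIs, the shares of these sub-clusters were 43.4% and 30.4%. In sub-cluster 0 the product of the single shares was 42.4%. The groups differed in the mix, with mostly Pdgfra UMIs in clusters 20 and 21 and in the mesothelial-like cells.

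**Figure D5:**
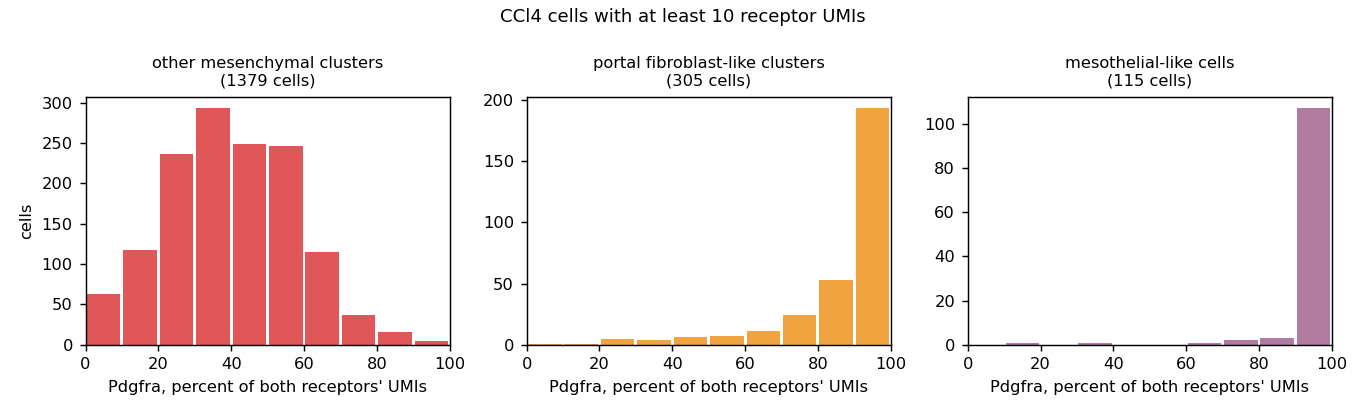
Number of CCl4 cells with at least 10 receptor UMIs (y axis) by the percent of these that were Pdgfra (x axis, bins of 10 percentage points) in 3 cell groups. The 1379 cells of the other mesenchymal clusters centre on 38.5%, whereas 193 of 305 portal fibroblast-like and 107 of 115 mesothelial-like cells lie at 90% or above.

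The 25 healthy mesenchymal-like cells were too few for shares and are described by count. They held 24 Pdgfra and 65 Pdgfrb UMIs, and 9 cells had both receptors, 2 only Pdgfra and 9 only Pdgfrb. Cells with Lrat, the retinyl ester synthase of quiescent stellate cells, numbered 7. The 5 cells of cluster 15 all had Lrat and 1 to 4 Pdgfra UMIs, and 4 of them had 1 or 2 Pdgfrb UMIs. The 12 cells of cluster 8 had 40 Pdgfrb and 2 Pdgfra UMIs, only 3 of them had a Dcn UMI, and 19 Pdgfa UMIs came from 7 of them. The 3 cells of cluster 20 had between 30151 and 47350 UMIs, no UMI of either receptor, Col1a1, Col3a1 or Dcn, and 21 of the 22 Pdgfc UMIs of the class. The class name was not borne out by these 3 cells, and the healthy mesenchymal level of Pdgfc rests on them. They also had 2, 3 and 5 Pdgfa UMIs, so the healthy mesenchymal level of Pdgfa rests on them in part.

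The mesenchymal-like cells of the CCl4 library carried ligands of their own, chiefly Pdgfa. It was highest in the contractile sub-cluster 12, at 113 CPM (104 to 122), followed by sub-cluster 1, led by Pdlim3 and Tnnt2, at 83.6 CPM (75.5 to 92.3), and lowest where Pdgfra was highest, at 14.2 CPM (10.7 to 18.4) in sub-cluster 4, leaving aside sub-cluster 13 with 1 UMI. Cell by cell at 2000 UMIs, the odds ratio of Pdgfa with Pdgfra was 0.844 and with Pdgfrb 1.19. Cluster 11, led by Dpep1, Thbs4 and Mfap4, held 82.0% (77.7 to 85.9) of the 362 mesenchymal Pdgfc UMIs and 30.7% of all UMIs of the class. Sub-clusters 3, 12 and 15 had no Pdgfc UMI in 208, 340 and 115 cells, which allows shares of up to 1.44%, 0.882% and 2.61% of cells with a UMI. Pdgfd was spread between 1.57 CPM in the cycling sub-cluster 14 and 23.5 CPM (15 UMIs) in sub-cluster 6, the shallowest. Of the 53 mesenchymal Pdgfb UMIs, 40 lay in sub-cluster 15, whose 115 cells also carried the endothelial genes Kdr and Cdh5.

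Immune-like cells of the CCl4 library carried Pdgfb and Pdgfa at 21.0 and 16.9 CPM, with overlapping intervals, and the types among them differed. In the CCl4 library the macrophage cluster (Cd5l, Clec4f, C1qa) had 46.3 CPM Pdgfb (34.1 to 61.4). The 40 cells led by Fcrls, Spp1 and Ms4a7 had 61.9 CPM (37.8 to 95.7), and 28 cells marked by Marco had 51.2 CPM (28.7 to 84.5). No Pdgfb UMI was found in 60 dendritic-like cells with Siglech, a plasmacytoid gene, which allows up to 5% of cells with a UMI, and these had 51.3 CPM Pdgfa (30.9 to 80.1) from 19 UMIs. Neutrophil-like (67 cells) and B-like cells (73 cells) had no Pdgfb UMI. Their medians were only 2272 and 2986 UMIs, so a count of 0 says little about their level. Receptor UMIs of immune-like cells, 68 of Pdgfra and 42 of Pdgfrb, stood against 37.9 to 48.9 and 41.1 to 53.0 from free mesenchymal RNA. The excess of Pdgfra lay in 1 sub-cluster of 70 cells, with 45 UMIs against 14.0 to 22.6, which also led in the fibroblast genes Gas1 and Loxl1; the part of mixed droplets in this was not tested.

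The proteases that act on the ligands differed by class. St14, the membrane protease matriptase, was at 119 CPM (114 to 124) in healthy cholangiocyte-like cells and at or under 0.822 CPM in hepatocyte-like, endothelial-like and mesothelial-like cells. Plat, the tissue plasminogen activator that can activate the C chain, was at 155 CPM (152 to 158) in CCl4 mesenchymal-like cells, 86.9 CPM in healthy mesothelial-like cells and 1.42 CPM in healthy cholangiocyte-like cells. Plau, the urokinase that can activate the D chain, was at 5.997 CPM (26 UMIs) in CCl4 endothelial-like cells and lower in every other class. Of 6 protease genes, 5 had enough UMIs in mesothelial-like cells, of which 3 were called lower (Furin, Pcsk6 and Plat), against 13.2% of all genes. Plau, with 24 against 0 UMIs, was at least 1.87-fold higher against the floor, under the 2-fold limit. In endothelial-like cells Pcsk6, with 37 and 2 UMIs, was called lower, against 21.7% of all genes (18.9% with a library at 0 set to the floor), and St14, with 17 and 0 UMIs, was at least 1.19-fold lower against the floor.

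Among the genes for co-receptors and ligand-binding proteins, Nrp1, which binds PDGF chains as well as VEGF, was at 1524 CPM in healthy and 1181 CPM in CCl4 endothelial-like cells and 120 CPM in CCl4 mesenchymal-like cells. Lrp1, an endocytic receptor that the beta receptor phosphorylates, was at 499.8 CPM in CCl4 mesenchymal-like cells and 431 CPM in the 25 healthy ones. Sparc, a matrix protein that binds the B chain, was at 8726 CPM in CCl4 mesenchymal-like cells. Pdgfrl, a receptor-like gene, was at 45.9 CPM (44.2 to 47.6) there and at or under 6.08 CPM in the other CCl4 classes. Of the 7 genes, 3 were called higher in CCl4 endothelial-like cells (Lrp1, Pdgfrl and Sparc), against 7.15% of all genes, and 1 lower (A2m), against 21.7%. Free mesenchymal RNA, scaled as for the receptors, would bring 45.6 to 92.6 Lrp1 UMIs where 79 were counted and 4.18 to 8.50 Pdgfrl UMIs where 5 were counted. Both counts lay within the estimates, and the part of free RNA in them was not tested. For Sparc it would bring 796 to 1616 UMIs where 18187 were counted. In mesothelial-like cells 1 of 6 was called lower (Itgb3), against 13.2% of all genes, and Pdgfrl, with 13 against 0 UMIs, was at least 1.01-fold higher against the floor.

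Signal proteins and brakes of the receptors mostly stayed within 2-fold in endothelial-like and mesothelial-like cells, as did most genes tested. Of all genes, 7.15% were called higher and 21.7% lower in endothelial-like cells, and 15.3% and 13.2% in mesothelial-like cells. Of 13 signal proteins such as Ptpn11, Plcg1 and Pik3r1, 12 were within 2-fold in endothelial-like and 12 in mesothelial-like cells. The exceptions were Src (13 and 6 UMIs, higher, with an interval of 0.686 to 6.21 that spans 1) and Gab1 (0.389 times, lower). Of 12 brakes, 11 were within 2-fold in endothelial-like cells, where Spry1 was at 0.452 times. In mesothelial-like cells 8 were within 2-fold, Errfi1, Ptpn2 and Spry4 were called higher (2.18, 2.04 and 10.3 times) and Spry2 lower (0.377 times), against 15.3% and 13.2% of all genes. Spry4, a feedback inhibitor of receptor tyrosine kinases, thus stood at 24.1 CPM in CCl4 and 2.34 CPM in healthy mesothelial-like cells. In hepatocyte-like cells 5 of 11 brakes, 2 of 12 signal proteins, 2 of 3 proteases and 2 of 4 co-receptor genes were called lower, against 27.5% of all genes. Sparc was called higher, against 15.6%, at 519 CPM. Its UMIs were fewer than the 294 to 523 that free mesenchymal RNA would bring, and the part of free RNA in them was not tested. Of the kin receptors, Csf1r and Flt3 were also among the markers that named immune-like clusters. Their levels in immune-like cells were thus partly built into the class names. Of the 2 kin receptors with enough UMIs none was called in endothelial-like cells, and Csf1r was called lower in mesothelial-like cells, against 13.2% of all genes. Kit was at 240 CPM in healthy endothelial-like cells, Csf1r at 396 CPM in CCl4 immune-like cells and 46.4 CPM in healthy cholangiocyte-like cells, and Flt3 at 16.9 CPM in CCl4 immune-like cells with 0 UMIs in every other class of either library.

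The genes whose levels followed the members most closely over 25 populations (clusters with at least 50 cells of 1 library, 8120 genes, Pearson correlation of log2(CPM + 10)) are given as a description, since the populations share libraries and cell types. They were Tnc, Angptl2 and Adamtsl2 for Pdgfrb (r of 0.981, 0.972 and 0.970), Cpxm1 and Rtn1 for Pdgfra (0.957 and 0.9449) and Gprc5c, Magi1 and Vsig10 for Pdgfd (0.941, 0.936 and 0.925). For Pdgfc they were Lamc3, Bex1 and Pak6 (0.913, 0.909 and 0.893), for Pdgfa Ift57, Clstn1 and Mapk8ip1 (0.894, 0.887 and 0.874), and for Pdgfb Hbegf, Slc12a7 and Tspan14 (0.841, 0.829 and 0.794).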

How the data were processed

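Droplet single-cell libraries (single cell 3′ v2) of liver cells from 1 healthy and 1 CCl4 pool were analysed. The deposited values are UMI counts per gene and cell, made by the authors with Cell Ranger 3.1.0 (healthy) and 6.0.1 (CCl4) per the file headers, in matrices already filtered to cells. The submitters' notes also name fastp and featureCounts 1.6.2. The genome build behind the matrices is not settled by the sources used here: the notes name GRCh38 and mm10, and the identifiers are those of mouse.

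From these counts, cells with at least 500 UMIs, 200 genes and at most 30% mitochondrial UMIs were kept. Scrublet in scanpy 1.11.5 scored doublets, and the top-scored cells, 0.8% for every 1000 cells of the library, were removed (277 healthy, 487 CCl4). Counts were scaled to 10000 per cell, and 2000 variable genes (without the members, list genes, mitochondrial, ribosomal and sex-linked genes), 10 principal components, 20 neighbours and Leiden resolution 1 gave 24 clusters, named from 17 marker lists. A marker counted when at least 2-fold above all other cells and in at least 10% of the cluster, and a name needed 3. The pathway genes Sparc, Itgb3, Csf1r and Flt3 were also in these marker lists. No cell annotation was used, so class names are rebuilt here.

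UMIs were summed per class and library over the 30406 genes shared by the matrices. The intervals are exact Poisson (levels), Clopper-Pearson (shares) and conditional binomial (ratios), and cover counting error only. Thinned shares are the expected shares at 2000 UMIs drawn without replacement. No test was made, since each condition has 1 library. Ratios were computed for all genes with at least 10 UMIs in classes with at least 50 cells per library. The scripts' intervals, thinning and calls were tested on simulated data. The named genes are the 6 members, 5 lists of pathway genes, and 3 genes of like pattern per member, of which 1 is not reported here; genes naming clusters are their leading genes. Members and lists were chosen with earlier results of these data known. Alternatives covered the mitochondrial limit, doublets, minimum UMIs, resolution, components, separate clustering, weighting, scaling and thinning. Promoters came from RefSeq (GRCm38.p6). Those of 4 of the 6 members are shown, and protein sequences are not shown.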

Additional observations from a re-analysis of the deposited data

Results flagged for a closer look

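Pdgfa and Pdgfc differed in direction between classes in the ratio of the CCl4 library to the healthy library. In each case 1 library stood for each condition and the difference between the classes was not tested. Pdgfa was at 1.56 times its healthy level (1.16 to 2.07) in endothelial-like cells and at 0.328 times (0.296 to 0.365) in mesothelial-like cells. In hepatocyte-like cells Pdgfa was at 0.731 times (0.141 to 2.42), an interval that spans 1 and the endothelial value. Pdgfc was at 25.1 times (12.1 to 62.5) in mesothelial-like cells, at 0.745 times (0.227 to 1.93) in endothelial-like cells and at 0.255 times (0.00617 to 1.58) in hepatocyte-like cells, where the intervals of the last 2 span 1 and the CCl4 counts were 5 and 1 UMIs. No group held 4 or more libraries, so no library could be judged as standing apart from its group.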

How the results depend on the processing

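With 1 library per condition no library could be left out, and p-values were not computed. No paired analysis was possible because each condition has 1 library and the labels carry no replicate numbers. Directions held except for Pdgfa in hepatocyte-like cells, whose ratio of 0.731 became 1.73 with cells weighted equally and 1.77 with each library clustered on its own, on 3 CCl4 UMIs. The percent of healthy ligand UMIs in cholangiocyte-like cells stayed within its interval under all 6 alternatives, and their level went from 516 CPM to 505 CPM both without doublet removal and with cells weighted equally. The percent of CCl4 receptor UMIs in mesenchymal-like cells went from 90.3% to 83.3% without doublet removal, where 319 cells of the class lost their name, to 83.8% with each library clustered on its own and to 89.9% without cluster 8, the cluster of lowest depth (an alternative added after seeing the data). Their level of 609 CPM became 584 CPM at a mitochondrial limit of 10%, 625 CPM without doublet removal, 603 CPM with 30 components, 589 CPM with separate clustering, 674 CPM with cells weighted equally and 601 CPM without cluster 8. The percent of mesenchymal-like cells with both receptors, 20.4% at 2000 UMIs, became 18.0% at the mitochondrial limit of 10% and with separate clustering, 49.1% at 5000 UMIs and 69.1% without thinning, where deeper cells show more of both by construction and the odds ratio was 7.81. At sub-cluster resolution 0.5 the lowest and highest Pdgfra percent were 34.0% and 91.5%, and 1 sub-cluster of 183 cells lay in the gap at 60.8%. The endothelial Pdgfb ratio was 1.48 with separate clustering, and the Pdgfd ratio of 0.476 became 0.616 with cells weighted equally and 0.544 without the 50 most abundant genes. The mesothelial ratios of Pdgfa, Pdgfc and Pdgfra moved within their intervals under 4 other settings and in cells with at least 20 marker UMIs (added after seeing the data). Of those cells only 2 healthy and 1 CCl4 had no Col1a1 or Col3a1 UMI. Setting a library at 0 to 3 UMIs (added after seeing the data) ended the mesothelial Pdgfb call, and leaving out 12 endothelial-like cells with erythroid genes (also added) ended no call. Depth limits the healthy receptors (122 UMIs) and the 33 CCl4 cholangiocyte-like cells.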
